A study of Xenopus laevis with 2 samples.

Results

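Ubiquitin-conjugating enzymes (E2s) are described here by the mRNAs found in axon preparations of Xenopus laevis retinal ganglion cells (RGCs), the neurons that connect the eye to the brain. The members were every gene name whose symbol starts with ube2 once a final .L or .S is taken off. This rule took 53 of the 49349 gene names in the deposited tables, on 54 rows and under 31 symbols. The only group was RGC axons, in 2 replicate libraries with no treatment named in the labels, and no cell body or whole eye library was analysed. The values therefore say which E2 mRNAs lay in the axon preparations and at what level, and not how axons differ from another compartment. For each library, eyes of stage 33/34 to 37/38 embryos were pooled (500 eyes) and kept for 48 hours on a filter with 1 μm pores, coated on both faces with poly-L-lysine and below with laminin. Axons crossed the pores, after which the eyes and cell bodies were taken away and cDNA of the axons was amplified by PCR. In the study, replicates of Xenopus material came from different batches of embryos.

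Ubiquitin reaches its substrates in 3 steps. An E1 enzyme activates it, an E2 carries it on a cysteine, and an E3 ligase brings the loaded E2 to the substrate. The E2, with its E3, decides which chain is built, and the chain decides the outcome: chains linked through lysine 48 send a protein to the proteasome, while chains linked through lysine 63 serve in signaling, trafficking and DNA repair. A few E2s carry ubiquitin-like proteins such as SUMO and NEDD8 instead. In Xenopus retinal growth cones, turning responses to guidance cues are known to depend on protein synthesis and on the proteasome. The roles named below are known mainly from human, mouse and yeast proteins.

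E2 mRNAs were detected in the RGC axon libraries under 21 of the 53 gene names (39.6%), with detection set at an FPKM over 1 in both libraries. FPKM counts the sequenced fragments of a gene, scaled by the length of its transcript and by the size of the library. Over all gene names in the tables, 4.39% passed the same limit, and of those that carry a gene symbol rather than a bare model number, 8.48% did. The 21 names belong to 13 of the 31 symbols. One further name, ube2v1.S, had a value above 0 in both libraries but only 0.495 FPKM in replicate 1. The other 31 names (58.5%) were listed at 0 in both libraries, as were 93.2% of all gene names and 87.3% of those with a symbol. The median over the 53 was thus 0 FPKM in each library. No E2 had a value in a single library only. The share of all gene names with a value in a single library was not computed, so this is not read as a trait of the E2s. Over 100 FPKM in both libraries were 8 of the 53 (15.1%), against 0.942% of all gene names. For this limit, the share of gene names with a symbol was not computed.

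Total depth is unknown, since FPKM values carry no read counts, so intervals and detection floors were not computed. Relative depth can be read from the steps of low values. Of the 621 gene names between 0 and 5 FPKM in both libraries, 44 lay at one ratio of replicate 2 to replicate 1, 3.72, within 0.01 on the log2 scale, and 29 and 20 at 1/2 and 1/3 of it. By this ratio the FPKM of a single read was 3.72 times larger in replicate 2, and its low values are the coarser. A value above 0 was given to 3148 gene names in replicate 1 and 2873 in replicate 2. A listed 0 need not mean that no read was there, since the estimate can fail. Of 11 genes of general use that were looked up, polr2a, tbp, hprt1 and tubb were listed at 0 in both libraries, so an E2 at 0 is described only as listed at 0. The study reported its axon material as pure, from RT-PCR and staining for factors of the soma and nucleus. For the RGC label, 12 markers were looked up here, whose mRNAs need not all lie in axons. The stathmin gene stmn2 had 280 and 120 FPKM for its L name and 262 and 719 FPKM for its S name, in replicates 1 and 2, and gap43.L had 2.85 and 3.11 FPKM. The other 10 (nefl, nefm, tubb3, rbpms, sncg, thy1, pou4f1, pou4f2, isl1 and isl2) were at 0 under every name. Markers of other cells were looked up in the same way: the summed list was 21.7 and 63.7 FPKM for Müller glia (2 of 4 genes detected), 86.8 and 63.9 FPKM for pigment epithelium (1 of 4, dct), 31.2 and 30.6 FPKM for connective tissue (1 of 3), at most 0.410 FPKM for photoreceptors (0 of 3) and 0 for lens (0 of 3). In a bulk sample, more axons with an mRNA and more mRNA per axon cannot be told apart, nor can RNA from such cells, whose part in the E2 values was not tested.

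The E2 mRNA of the RGC axon preparations was mostly that of ube2d3. UBE2D3 belongs to the UBE2D family, E2s that work with many E3 ligases and place the first ubiquitin on a substrate. The L homeolog, ube2d3.L (X. laevis v9.2, chr1L:67178886-67195264), reached 10032 FPKM in replicate 1 and 8067 in replicate 2, which ranked 6 and 13 among all gene names. The S homeolog, ube2d3.S (chr1S:61826645-61852388), had 6172 and 4330 FPKM, at ranks 17 and 34. Both homeologs were thus among the most abundant mRNAs of the axon preparation in both libraries, and the values of L and S did not overlap. Together they took 2.61% of the summed FPKM of replicate 1 and 1.71% of that of replicate 2. The other 51 E2 names together came to far less: ube2d3 was 6.63 times their sum in replicate 1 and 3.01 times in replicate 2.

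A paralog, ube2d1, followed. Its L row (chr7L:10331353-10361546) is named ube2d1.L and ube2d2 at once. Its value was 342 FPKM in replicate 1 and 1641 in replicate 2, at ranks 277 and 88, so that the libraries differed by 4.79-fold. The highest value of this row lay below the lowest of ube2d3.S. The S row of ube2d1 (chr7S:7593008-7616972) had 13.3 and 10.3 FPKM. Both rows of ube2d4, the remaining member of the family, were listed at 0. The proteins of this family are near-identical, and its mRNAs can share reads, so the split among ube2d1, ube2d2 and ube2d3 is less certain than their sum. In the gene table of a later assembly (Xenopus_laevis_v10.1), ube2d2 is a synonym of both ube2d1.L and ube2d3.L and no gene carries it as its symbol. The ube2d rows made up 88.8% of the E2 FPKM in replicate 1 and 85.1% in replicate 2. Without them, the E2s took 0.337% and 0.340% of the summed FPKM.

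Of the E2s with general or N-terminal activity, ube2e2, ube2e3 and ube2w were also detected, while ube2e1 and ube2l3 were not. The UBE2E proteins carry an extension before the catalytic domain. The S homeolog of ube2e3 (chr9_10S:63963591-64007926) had 465 and 128 FPKM and the L homeolog (chr9_10L:69953313-69994992) 75.3 and 26.4 FPKM, both lower in replicate 2. For ube2e2, the row on chr6S (37894463-38023858), which the files name ube2e2.L, had 256 and 225 FPKM, the smallest difference between libraries of the 22 E2s with a value. The row on chr6L, named ube2e2.L and ube2e2.S at once, had 18.9 and 4.90 FPKM. A further row on chr6S named ube2e2, with no ending, was listed at 0. UBE2W attaches ubiquitin to the N-terminal amino group of proteins. Its S name (chr6S:98386196-98412067) had 33.7 FPKM in replicate 1 and 285 in replicate 2, a ratio of 8.45, so the libraries place it at ranks 987 and 353. UBE2L3 passes ubiquitin only to E3s with an active cysteine, such as Parkin and the Ariadne ligases. Both of its homeologs were listed at 0. In all, 9 of the 15 names in this group were detected and 6 were listed at 0.

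**Figure D1:**
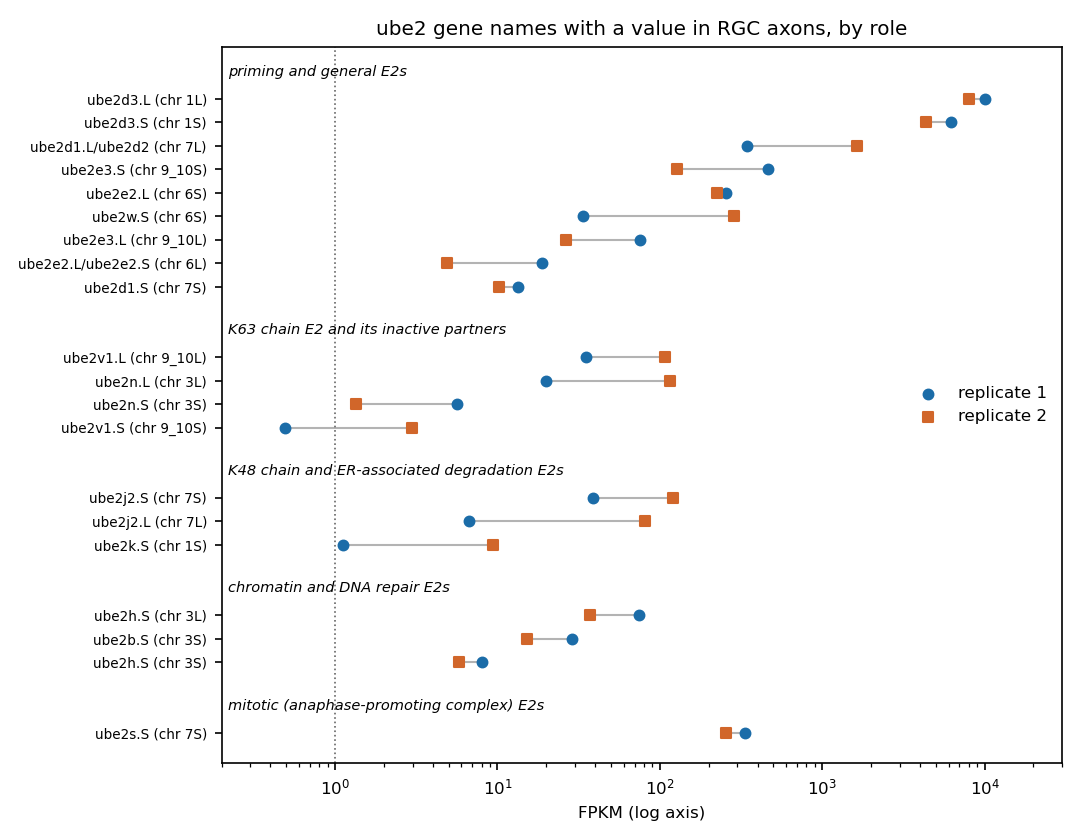
FPKM on a log axis of 20 ube2 gene names with a value, grouped by role; circles are replicate 1, squares replicate 2, a gray line joins them, and the dotted line is 1 FPKM. The ube2d3 rows stand at 4330 to 10032 FPKM, apart from all others; the 31 names listed at 0 are not drawn.

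The E2 of lysine 63 chains was present at a lower level. UBE2N builds these chains only together with UBE2V1 or UBE2V2, which have the E2 fold but no catalytic cysteine. The L homeolog of ube2n (chr3L:48614657-48630577) had 20.02 and 116 FPKM and that of ube2v1 (chr9_10L:10246908-10263110) had 35.2 and 108 FPKM. The partner thus had the higher value in replicate 1 and the enzyme in replicate 2. Both were higher in replicate 2 than in replicate 1, and their ranges overlapped. The S homeologs were low, with 5.63 and 1.35 FPKM for ube2n and 0.495 and 2.98 FPKM for ube2v1. Both homeologs of the other partner, ube2v2, were listed at 0. Of the 6 names in this group, 3 were detected, and the group took 0.329% of the E2 FPKM in replicate 1 and 1.38% in replicate 2.

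Among the E2s of lysine 48 chains and of the degradation of proteins from the endoplasmic reticulum (ER), 3 of 10 names were detected. UBE2J2 is anchored in the ER membrane. Its S homeolog (chr7S:61526640-61550132) had 39.0 and 120 FPKM. Its L homeolog (chr7L:87420620-87442442) had 6.66 and 81.4 FPKM, the widest ratio between the libraries of any E2, 12.2. UBE2K builds lysine 48 chains. Its S name had 1.13 FPKM in replicate 1, just over the detection limit, and 9.33 FPKM in replicate 2. The other ER membrane E2, ube2j1, the soluble ER-associated E2 ube2g2, its relative ube2g1 and the cullin-RING E2 ube2r2 were listed at 0 under all of their names. Of the ER ligases on the lists used here, syvn1 had 40.0 and 121 FPKM under its L name, while syvn1.S and both names of amfr were listed at 0.

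The E2s of chromatin and DNA repair took 0.597% of the E2 FPKM in replicate 1 and 0.353% in replicate 2. In replicate 1 this was above the lysine 63 group (0.329%) and the lysine 48 and ER group (0.251%). In replicate 2 it was below both (1.38% and 1.28%). UBE2A and UBE2B are the counterparts of yeast Rad6, which ubiquitinates histone H2B and acts in DNA damage tolerance. The S homeolog of ube2b (chr3S:12521425-12533759) had 29.0 and 15.3 FPKM, and ube2b.L and ube2a.L were listed at 0. UBE2H ubiquitinates histones in vitro and is the E2 of the GID ligase. It had 74.3 and 37.2 FPKM on chr3L and 8.07 and 5.77 FPKM on chr3S, with both rows named ube2h.S. All 3 of these rows were lower in replicate 2. The Fanconi anemia E2 ube2t was listed at 0. Together, 3 of 6 names were detected in this group.

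Of the 2 E2s grouped here under the anaphase-promoting complex, the ligase that ends mitosis, ube2s was abundant and ube2c was listed at 0. UBE2C starts the chains on substrates of this ligase and UBE2S extends them. The S homeolog of ube2s (chr7S:74252917-74257960) had 332 FPKM in replicate 1 and 256 in replicate 2, at ranks 283 and 375. The row of ube2s.L and both rows of ube2c were at 0 in both libraries. Proliferation markers were looked up beside it. Of 9 such genes, 2 were detected, pcna with 150 and 74.3 FPKM and aurkb.L with 67.5 and 133 FPKM. The markers top2a, ccnb1, ccna2, mcm2 and plk1 were at 0 under every name, cdk1.S had 0 and 0.864 FPKM and mki67.L 0 and 0.117 FPKM. The summed level of the list was 217.5 and 208 FPKM. The part of dividing cells in the value of ube2s was not tested.

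Among the E2s of ubiquitin-like proteins, those of NEDD8, which is attached to the cullins of cullin-RING ligases, were listed at 0. Over the NEDD8 pathway, all 7 gene names were at 0 in both libraries, as were 87.3% of all gene names with a symbol, so this count is near the background. These were the E2s ube2m (2 names) and ube2f, the E1 subunits uba3 (2 names) and nae1, and nedd8 itself. The E2 ube2z, which takes ubiquitin and the ubiquitin-like protein FAT10 from another E1, was listed at 0 under both names.

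The remaining E2s, ube2o, ube2q2, ube2ql1 and ube2u, had 5 names and were all at 0. Of the 31 symbols, 18 were thus listed at 0 under every name, 10 of them with at least a pair of names and 8 with a single one. The share of all symbols at 0 was not computed, so this count is not read as a trait of the E2s. By gene name, 87.3% of those with a symbol were listed at 0 and 8.48% were detected, the background for the counts of each role group as well. Locus length, which in the deposited tables spans introns and is not the transcript length, was looked up for both sets. The median span was 23729 bp for the 22 names with a value and 19154 bp for the 31 at 0, over ranges of 5044 to 129396 bp and 5856 to 99446 bp that overlapped widely.

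The other steps of the ubiquitin pathway were then placed beside the E2s, from lists of genes that were chosen with earlier results of these data known. Ubiquitin is made as fusions to ribosomal proteins and as chains of itself. Of the fusion genes, the 2 rows of rps27a had 578 and 1373 FPKM and 658 and 349 FPKM. Of 11 precursor names in all, 5 were detected (45.5%) and 5 were listed at 0. Of the E1s, 2 of 9 names were detected (22.2%). Among all gene names with a symbol, 8.48% were detected and 87.3% were listed at 0. The highest was uba2.L, the catalytic subunit of the SUMO E1, with 948 and 868 FPKM, while sae1, the other subunit, was listed at 0. The main ubiquitin E1, uba1, had 6.64 and 4.02 FPKM under its L name, below the value of 19 of the 53 E2 names in replicate 1 and 20 in replicate 2. Genes with an E2 fold and another name gave 3 of 10 names (30%). The highest of these was aktip.S, an inactive E2 variant of a vesicle transport complex, with 36.6 and 139 FPKM, while cdc34.L, the E2 of cullin-RING ligases, had 5.94 and 10.4 FPKM.

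Of 64 E3 names, 7 were detected (10.9%) and 54 listed at 0. The Ariadne ligase arih2 led with 244 and 986 FPKM under its L name, while ube2l3, an E2 of such ligases, was listed at 0. The cullin-RING adaptor skp1 had 113 and 105 FPKM on the row with both endings, and ube3a, the Angelman syndrome ligase, had 17.6 and 7.74 FPKM under its S name. Of 29 deubiquitinase names, 3 were detected (10.3%) and 24 listed at 0, led by usp9x.L with 58.0 and 46.0 FPKM. Both shares lie near the 8.48% of all gene names with a symbol. No test was made between these lists, which differ in size and in how they were chosen. The effect of transcript length on their FPKM after amplification was not tested either.

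**Figure D2:**
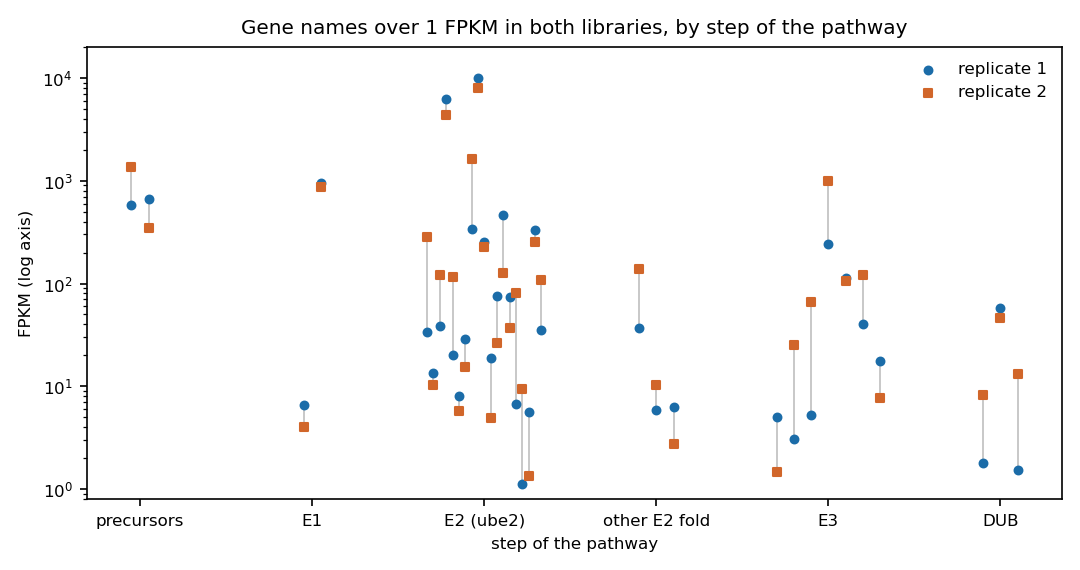
FPKM on a log axis of gene names over 1 FPKM in both libraries, by step of the pathway; each gray line joins replicate 1 (circle) and replicate 2 (square) of 1 gene name. The E2 column draws 19 names, the precursor column 2 (both rps27a), E1 2, other E2-fold genes 3, E3 7 and deubiquitinases (DUB) 3; of the names drawn, only ube2d3.L, ube2d3.S and, in replicate 2, the ube2d1.L row rise above 1373 FPKM, the highest value of rps27a.

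X. laevis is allotetraploid, and many genes have an L and an S homeolog on chromosomes named likewise. The E2 names do not always follow this. For 4 members the ending differs from the chromosome of the row, among them ube2h.S on chr3L, ube2m.S on chr7L and ube2e2.L on chr6S. In the v10.1 gene table each of the symbols named has both an L and an S gene, so homeologs were taken by the chromosome of the row, a choice made after the names were seen. There were 20 such pairs, of which 9 were at 0 in all values and 11 had a homeolog over 10 FPKM. The L homeolog was the higher in both libraries for 5 of the 11 and the S homeolog for 6, so no pair changed sides between the libraries. How many of all homeolog pairs kept sides was not computed, so this is not read as a trait of the E2s.

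The pairs differed in how evenly they were used. In ube2d3, S made up 38.1% and 34.9% of the pair. In ube2e3, S made up 86.1% and 82.9%. More than 10-fold apart in both libraries, on FPKM + 1, were 5 pairs. For ube2s and ube2b, only S had a value. For ube2e2, the S row was 12.9-fold and 38.3-fold above the L row. For ube2d1, the L row was 23.96-fold and 145-fold above S, and for ube2v1 24.2-fold and 27.4-fold. Paired by the ending of the name, which leaves out ube2e2, ube2h and others, 4 of 8 pairs differed by this much. Over all genes paired by name with a homeolog over 10 FPKM, 52.2% of 784 pairs did, a like share to that of the E2 pairs. Homeologs with near-identical mRNAs can share reads, and how the authors' estimate divides such reads is uncertain.

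**Figure D3:**
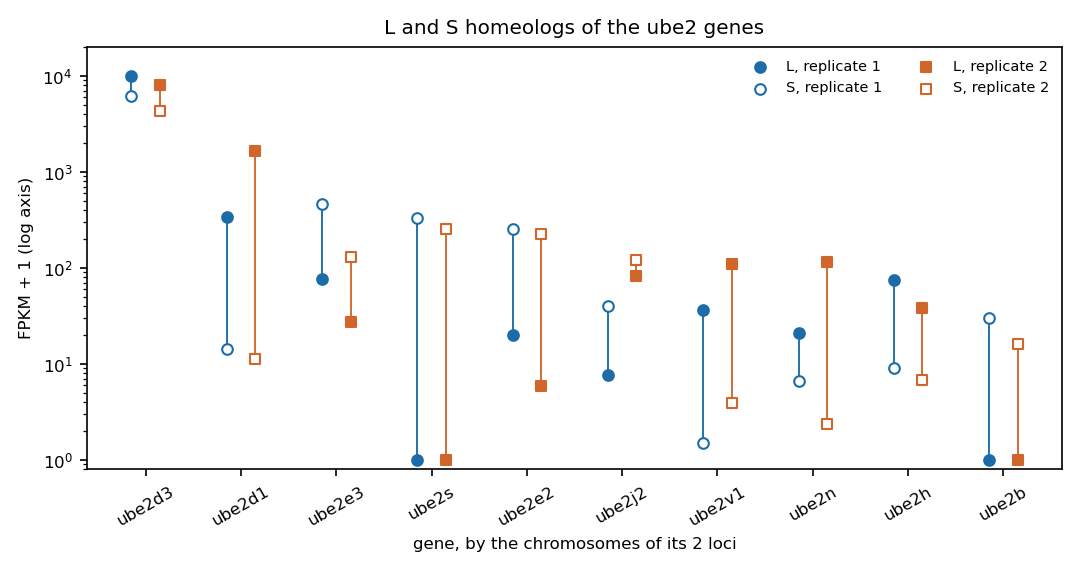
FPKM + 1 on a log axis of the L (filled) and S (open) homeolog of 10 E2 genes with a homeolog over 10 FPKM, in replicate 1 (blue circles) and replicate 2 (orange squares), with homeologs taken by chromosome. In every pair drawn the same homeolog is on top in both libraries, from ube2d3, where S holds 38.1% and 34.9%, to ube2s and ube2b, where L is listed at 0. How often the pairs of other genes do so was not computed.

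The homeologs of a pair could differ in how the libraries compare. For ube2n, L was 5.78-fold higher in replicate 2 and S 4.18-fold higher in replicate 1. The S values were low, at 5.63 and 1.35 FPKM, and low values are the coarser in replicate 2, so this S ratio is uncertain. For ube2d1, L was 4.79-fold higher in replicate 2 and S 1.30-fold higher in replicate 1. In ube2j2 and ube2v1, both homeologs were higher in replicate 2, and in ube2d3, ube2e2, ube2e3 and ube2h, both were higher in replicate 1. The S values of ube2v1 were only 0.495 and 2.98 FPKM, under the detection limit in replicate 1, so the direction of that homeolog is uncertain. Low values also lie behind the directions of ube2h on chr3S (8.07 and 5.77 FPKM), ube2e2 on chr6L (18.9 and 4.90 FPKM) and ube2d1.S (13.3 and 10.3 FPKM). These directions are uncertain too.

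Over the 22 E2 names with a value, 13 were higher in replicate 1, by 1.14-fold to 4.18-fold, and 9 in replicate 2, by 2.04-fold to 12.2-fold. The share higher in replicate 2 was 40.9%, against 48.6% of all gene names over 1 FPKM in at least 1 library. On the log2(FPKM + 1) scale, 5 of the 22 (22.7%) differed by more than 4-fold between the libraries, against 17.7% of the 2593 gene names over 1 FPKM in at least 1 library. They were the row of ube2d1.L and ube2d2, ube2w.S, ube2n.L, ube2j2.L and ube2k.S, and all were higher in replicate 2. Of the 459 gene names over this limit, 413 were likewise higher in replicate 2 and 46 in replicate 1. The median absolute difference of the 21 detected E2s was 1.48 on the log2 scale, and 0.98 over all gene names detected. Most neighbors in the order of levels cannot be told apart: of 21 neighboring pairs, ordered by the geometric mean of FPKM + 1, 17 had overlapping values. The 4 pairs whose values did not overlap included ube2d3.L with ube2d3.S, ube2d3.S with the ube2d1.L row, and ube2b.S with ube2d1.S. The order came from the same values, 1 per library, so a pair without overlap is not read as a resolved difference. The count for neighbors among all gene names was not computed, so it is not read as a trait of the E2s. By replicate 1, 8 E2s were over 100 FPKM, and by replicate 2, 12, the additional 4 being ube2w.S, ube2j2.S, ube2n.L and ube2v1.L.

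**Figure D4:**
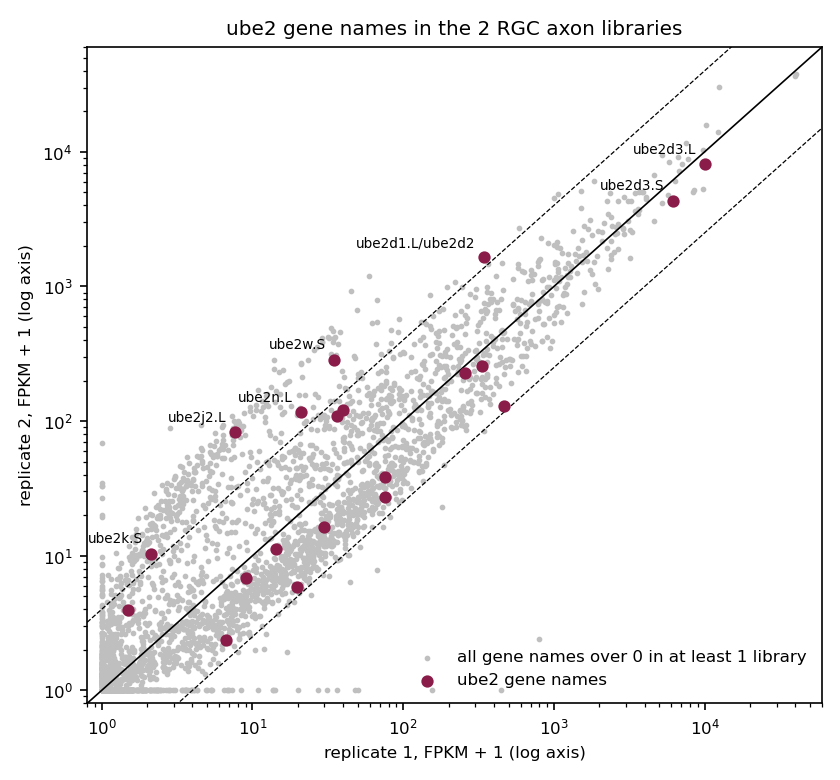
FPKM + 1 in replicate 1 (x) against replicate 2 (y), both on log axes, of all gene names over 0 in at least 1 library (gray) and of 20 ube2 names with a value (dark red); the solid line marks equal values and the dashed lines a 4-fold difference. The 5 labeled names above the upper dashed line are the row of ube2d1.L and ube2d2, ube2w.S, ube2n.L, ube2j2.L and ube2k.S, while ube2d3.L and ube2d3.S lie near the line of equal values at the top.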

How the data were processed

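The libraries were 2 replicates of RGC axons. Per the labels and the methods of the study, the authors aligned reads with HISAT2 2.1.0 in its default mode (genome: X. laevis v9.2) and deposited FPKM values estimated with Cufflinks 2.1.1, 1 value per row and library. The annotation is not given in the sources used here. Rows of one gene name were summed, which took 51037 rows to 49349 gene names, and nothing was rescaled. Among the E2s, the summing touched only ube2e1.L. With 1 condition, no groups could be tested. Detection followed the limit of the study's GO analysis. The limit of 100 FPKM, which the study set for ribosomal protein mRNAs on average values, was applied here to each gene name in both libraries. Starts of loci were raised by 1, since the tables count from 0. Of 22 member names that hold more than one name, 18 include a numbered gene model, and 17 of these carry the same ube2 symbol in the v10.1 gene table.

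Members, roles, pathway lists and markers were chosen with earlier results of these data known, and the genes of general use later. Named were all detected E2s, homeolog pairs over 10 FPKM, E2 symbols at 0 and pathway genes over 100 FPKM, except some that are not reported here but stay in the counts and sums. Other pathway genes and markers were named after their values were seen. Alternatives were the limits, rows, homeologs, pseudocount, scaling and leaving out each replicate. Values were computed in Python (3.11.15) using pandas 2.3.3 and numpy 2.4.6, and drawn with matplotlib 3.10.9.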

Additional observations from a re-analysis of the deposited data

How the results depend on the processing

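The 21 detected E2 names were 22, 18 and 16 with limits of 0, 5 and 10 FPKM, 13 with homeologs summed to one gene, since fewer genes are then counted, and 12 without rows that hold more than one name. In single libraries they were 21 to 22. The latter rows are mostly one gene under a symbol and a model number. Without them, 5 in place of 8 E2s were over 100 FPKM, and 0 in place of 4 homeolog pairs by name differed by more than 10-fold, as at least one row of each of the 4 pairs was left out. The 8 E2s over 100 FPKM were 8 to 12 in single libraries. The pair count was 2 with a pseudocount of 10, which narrows folds of low values, 4 to 5 in single libraries, and 5 by chromosome (added after the data were seen). The E2 share of summed FPKM, 2.64% on average, was 1.71% without the 10 highest gene names, which include ube2d3.L, 3.45% without ribosomal protein genes, and 2.28% to 3.004% in single libraries. The ube2d share of E2 FPKM, 86.9%, was 28.3% of the summed log2(FPKM + 1), which compresses high values, and 85.1% to 88.8% in single libraries. The 5 E2s over 4-fold between libraries were 4 to 6 under the alternatives run. Of 36 alternatives, 28 kept a value within 1.5 times the count or within the spread between libraries. Some of the 28 could not have moved, so this tally does not measure robustness. A share in a single library always lies within that spread of the average. Taking the highest row of each gene name changes no E2 value, since the only E2 name on several rows, ube2e1.L, was listed at 0.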
